A study of Mus musculus with 20 samples.

Results

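The regions described here are GPS2 ChIP-seq peaks of untreated 3T3-L1 cells, a mouse preadipocyte line, for which the list of cells treated with FCCP holds no peak nearby. They were selected on their height in the untreated list and on the positions in both lists: chromosomes 1 to 19, at least 5 and below 15 normalized tags (tags in the peak, scaled to a library of 10000000), and no FCCP peak centre within 1000 bp of the peak's centre. This gave 2196 untreated-only peaks, out of 7776 untreated peaks in that range of height, 42486 untreated peaks on these chromosomes and 164307 peaks in the 4 lists of the series. Because the selection used heights and positions of both 3T3-L1 lists, all values from these lists are descriptions and were not tested. The brown fat lists played no part in the selection.

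GPS2 is a subunit of the NCoR and SMRT corepressor complexes, which silence genes through histone deacetylases, and in adipocytes it also acts as a cofactor at active promoters. The protein is found in mitochondria as well as in the nucleus. FCCP is a protonophore: it lets protons cross the inner mitochondrial membrane, so that the membrane potential collapses and respiration runs without ATP synthesis. The study asks whether such stress moves GPS2 from mitochondria to chromatin, and the peaks described here run in the opposite direction: they were listed without FCCP and not with it.

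The series holds 20 ChIP-seq samples, 4 of them with a peak list. The 3T3-L1 cells are labelled minus (no) FCCP and plus (with) FCCP, with no dose, time or stage of differentiation in the labels, and each list was made from 1 pool of 2 libraries, A and B, with no input or knockout as control. The other lists are of brown adipose tissue (BAT) of wild-type mice on a mixed 129sv/C57BL6J background, labelled male and female, each called over the BAT library of a GPS2 knockout of the same labelled sex. In the knockout, floxed Gps2 is deleted by Cre under the adiponectin promoter, so that cells other than adipocytes in the tissue keep the gene; ages are not given, and the growth protocol mentions only males. With 1 list per condition there are no replicates, and a height below the limits of the call is not recorded. Absence from the FCCP list is therefore not an absence of signal. Peak lists hold no expression values, so the cell labels were not checked against marker genes.

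The pools held 74504840 tags without and 66979291 with FCCP, so that 1 normalized tag stands for 7.45 and 6.70 tags. A peak entered a list if it reached a tag threshold, 3.49 normalized tags without and 3.58 with FCCP, and if it stood at least 4-fold over the tags expected from the surrounding 10000 bp of its own library. Some listed heights are below that threshold (the lowest untreated one is 2.82), so it is an approximate limit on this scale. The untreated-only peaks ran from 38 to 105 tags with a median of 42, and counting error alone was 15.4% at the median.

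Most untreated-only peaks were low and lay just above the fold limit. Their median height was 5.64 normalized tags (quartiles 5.23 and 6.31, highest 14.1), and 785 of the 2196 were below 5.5. The 5580 untreated peaks of the same range with an FCCP partner had a median of 6.04 (5.5 and 7.25). Of the range of 5 to 15 as a whole, 28.2% had no FCCP peak within 1000 bp (Wilson 95% interval 27.3 to 29.3, counting error only). The share was 53.0% over untreated peaks of any height, and in the reverse direction 40.9% of FCCP peaks of 5 to 15 normalized tags had no untreated peak within 1000 bp. Peaks of this height were thus left without a partner less often in the shorter, untreated list than in the FCCP list.

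The share fell with height at each step. It was 34.9% at 5 to 6 normalized tags (1442 of 4128 peaks), 25.9% at 6 to 7, 20.4% at 7 to 8, 15.1% at 8 to 10, 7.14% at 10 to 12 and 6.70% at 12 to 15 (12 of 179). At 15 normalized tags or more, outside the range, 6 of 204 untreated peaks had no partner. FCCP peaks without an untreated partner took a larger share in each of the 6 height classes, from 47.3% at 5 to 6 to 8.08% at 12 to 15, but in the last class the intervals overlapped (3.88 to 11.4 against 5.04 to 12.7).

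The fold over the local region separated the 2 kinds of untreated peak more than the height did. Untreated-only peaks had a median of 4.48-fold (quartiles 4.20 and 4.99), against 5.60-fold (4.76 and 7.01) for peaks with a partner and 5.03-fold for all untreated peaks. Below 4.5-fold lay 50.6% of untreated-only peaks (1112), 15.9% of those with a partner and 28.9% of all untreated peaks. At 8-fold or more the order was the reverse, with 2.37% of untreated-only peaks (52) and 16.7% of those with a partner.

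**Figure D1:**
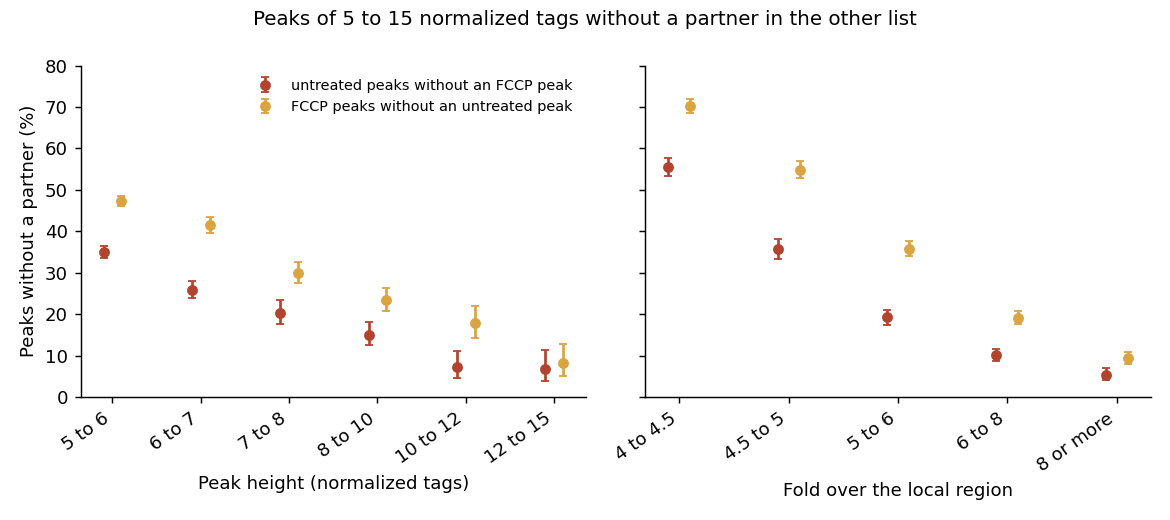
Share of peaks of 5 to 15 normalized tags without a partner centre within 1000 bp in the other list, by height in normalized tags (left) and by fold over the local region (right), for untreated peaks (red) and FCCP peaks (yellow); bars are Wilson 95% intervals. The untreated share fell from 34.9% to 6.70% over the height classes and from 55.6% to 5.29% over the fold classes, with the FCCP share above it throughout.

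Read by fold, the share without an FCCP peak was 55.6% at 4 to 4.5-fold (1112 of 1999 peaks), 35.7% at 4.5 to 5, 19.2% at 5 to 6, 10.0% at 6 to 8 and 5.29% at 8-fold or more. Height and fold each went with it when the other was held in a class. Among peaks of 4 to 4.5-fold the share was 57.9% at 5 to 6 normalized tags and 42.5% at 8 to 15. Among peaks of 6-fold or more it was 14.1% and 1.87% (10 of 534). A peak that was both tall and well above its surroundings was therefore seldom missing from the FCCP list.

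**Figure D2:**
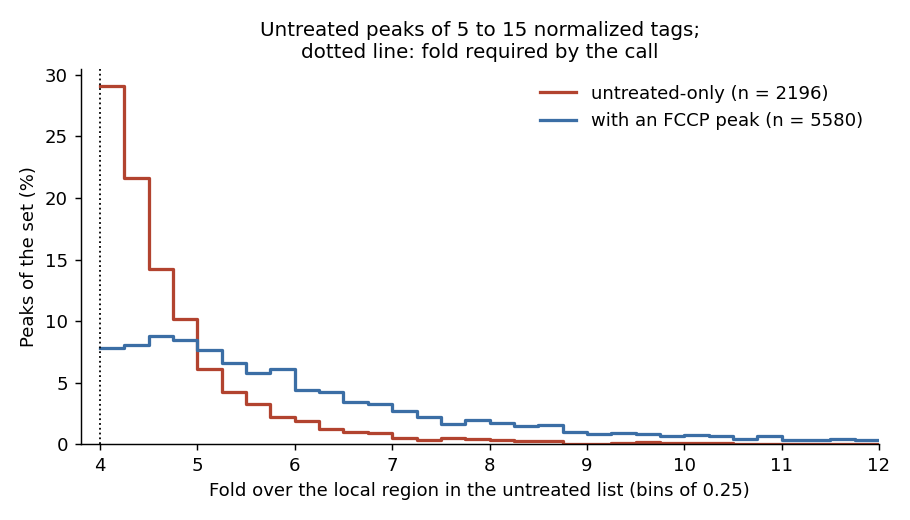
Distribution of the authors' fold over the local region, in narrow bins of equal width, for untreated peaks of 5 to 15 normalized tags without (red) and with (blue) an FCCP peak; the y axis is the percent of each set, and folds of 12 or more are not drawn. The untreated-only peaks pile up at the required 4-fold, with a median of 4.48, and the others spread to higher folds, with a median of 5.60.

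These folds leave little room above the limit. A median untreated-only peak stood 1.12 times over the required fold (quartiles 1.05 and 1.25), and for 1249 of the 2196 (56.9%, interval 54.8 to 58.9) the excess was smaller than the counting error of the peak's own tags. For peaks with a partner the median was 1.40 times, and the excess was below counting error at 19.2%. Over all untreated peaks, which are mostly lower and had a median counting error of 18.3%, the values were 1.26 times and 38.8%. FCCP-only peaks resembled the untreated-only ones in this, with 1.16 times and 50.1%. The tag threshold was farther away: the heights were 1.42 to 3.94 times the FCCP threshold, with a median of 1.57. The fold rule was thus the nearer of the 2 limits for most of these peaks, an order that the selection on height largely sets. The lower height limit keeps every peak at least 1.42 times over the FCCP tag threshold, whereas the fold is that of the untreated list. Peaks with a partner had the same order, with medians of 1.40 times for the fold and 1.69 times for the tag threshold. FCCP-only peaks had 1.16 and 1.58 times. The order therefore does not set the untreated-only peaks apart. The lists do not record how much signal the FCCP pool had at the same places.

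The local level, taken as height divided by fold, was also higher around untreated-only peaks. It is computed from the 2 values above and is not a separate observation. The selection on height also raises it over that of all untreated peaks, whose median height was 4.03. Its median was 1.26 normalized tags per peak width (quartiles 1.13 and 1.40), against 1.11 (0.899 and 1.32) at peaks with a partner and 0.797 over all untreated peaks. The share without a partner did not follow it in 1 direction: it was 11.9% at local levels of 0.5 to 1, 35.8% at 1 to 1.5 and 25.8% at 2 or more. HOMER's focus ratio, the fraction of tags placed as a centred peak would have them, had a median of 0.717 against 0.694 at peaks with a partner. The clonal ratio, HOMER's measure of repeated tags, was close in both sets, with medians of 0.93 and 0.92.

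The lists allow one look at the FCCP signal close to these peaks. An FCCP peak within 5000 bp of the centre shares much of the same 10000 bp, and its own height and fold give the FCCP local level there. Such a neighbour existed for 428 of the 2196 untreated-only peaks. The height needed for an FCCP call, the larger of the tag threshold and 4 times that local level, had a median of 4.21 normalized tags, and the untreated height was at or above it at 388 of 428 (90.7%, interval 87.5 to 93.1). The median excess was 1.30-fold. The same reckoning for peaks with a partner, with the partner as the neighbour, gave 95.4% and 1.41-fold.

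These shares are largely set by the selection. Every untreated peak already stood at least 4-fold over its own local level and had at least 5 normalized tags, so it reaches the FCCP limit wherever the FCCP local level is not the higher one. They describe the heights and are not evidence of a change with FCCP. The local level was lower in the FCCP list at most of these places: the median ratio of FCCP to untreated local level was 0.932 at untreated-only peaks, higher with FCCP at 31.5% of them, and 0.993 at peaks with a partner. The neighbour had itself passed the 4-fold rule, which favours places with a low FCCP local level. Its part in these ratios was not tested, and the other 1768 peaks have no such neighbour.

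**Figure D3:**
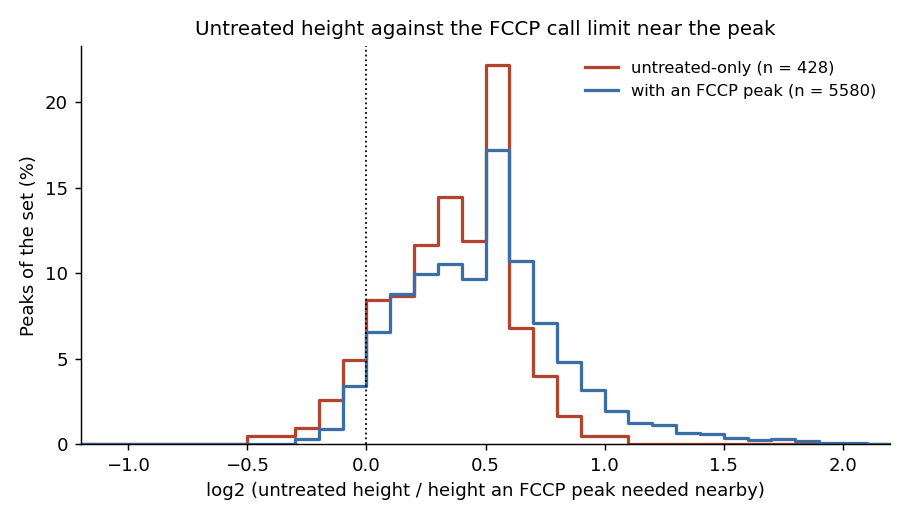
Untreated height divided by the height an FCCP peak needed nearby, as log2 in bins of 0.1, for untreated-only peaks (red) and peaks with an FCCP partner (blue) that have an FCCP peak within 5000 bp; the y axis is the percent of each set. Both sets lie mostly to the right of the dotted line at equal height, 90.7% of the red and 95.4% of the blue, which the height limit and the 4-fold rule of the untreated call largely fix.

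Most of the untreated-only peaks were not near misses in position. The nearest FCCP centre lay at a median of 13829 bp, with quartiles of 6116 and 37031 bp. It lay within 2000 bp at 142 (6.47%), between 2000 and 5000 bp at 286, between 10000 and 50000 bp at 916 (41.7%), and beyond 100000 bp at 173 (7.88%). Peaks with a partner were on the whole in register, with 4997 of 5580 partners within 200 bp and 124 beyond 500 bp. Within 10000 bp, 59.7% of untreated-only peaks had no FCCP peak at all. Since the selection leaves out every peak with an FCCP centre within 1000 bp, these distances describe the set and are not compared with other peaks.

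Most untreated-only peaks had no other of their kind close by. Another lay within 10000 bp for 141 of them (6.42%), a share that was not compared with an even spread or with other sets. They were not evenly spread over windows of 1 Mb, which held a mean of 0.915 and at most 14. The nearest other untreated peak of any height was at a median of 20776 bp. It was at 13877 bp for peaks with a partner and 12202 bp over all untreated peaks. Within 50000 bp the untreated-only peaks had a mean of 2.55 other untreated peaks, against 3.25 around all untreated peaks. The untreated-only peaks thus had somewhat fewer neighbours in their own list.

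At the limits of the rule, the lowest peaks included had 5.10 normalized tags, among them chr1:6010845-6011109 (9.60-fold over the local region) and chr1:9583254-9583518 (4.31-fold). Just outside, at 4.97, were chr1:5283009-5283273 and chr1:5714893-5715157. Heights come in steps of 1 tag, so these differ by a single tag. At the upper limit the nearest peaks without a partner were at 14.1 inside and at 16.0 (chr1:173352082-173352346) and 17.2 (chr11:69731825-69732089) outside. The nearest FCCP centre was 1010 bp from chr16:81625912-81626176 and 1030 bp from chr4:60465552-60465816, which are included. It was 999 bp from chr18:57805225-57805489 and 993 bp from chr6:133217866-133218130, which are not. All positions are on mm8 as the files give them, and the genes there were not analysed here.

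The 10 tallest untreated-only peaks were all close to the fold limit, at 4.03- to 4.80-fold. The tallest was chr8:19790467-19790731 with 14.1 normalized tags (exact Poisson 95% interval 11.5 to 17.1) and 4.17-fold, and an FCCP peak of 17.9 lay 10411 bp away. Next came chr2:177713647-177713911, chr5:4218535-4218799 and chr8:19881097-19881361, each with 14.0. Around these 10 the local level was 2.92 to 3.43 normalized tags, against a median of 1.26 for all untreated-only peaks. None of the 10 overlapped a BAT peak. Over all untreated-only peaks the shares were 5.65% for the male and 3.60% for the female list, and over all untreated peaks 2.81% and 1.61%. With such shares, 10 peaks are too few to be set apart.

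At 5 of the 10, the nearest FCCP peak was the taller one. For chr1:75344974-75345238, with 13.2 normalized tags, that neighbour had 13.9 and was 1100 bp away. At chr11:88786477-88786741 the values were 13.2 and 14.2, at a distance of 2554 bp. For chr8:19881097-19881361 they were 14.0 and 23.4 at 2522 bp, and for chr1:85034214-85034478 12.5 and 15.1 at 14841 bp. The fifth is the tallest peak. The other tall peaks had lower FCCP neighbours: chr2:83788000-83788264 (12.5) had one of 12.1 at 5789 bp, chr2:83764794-83765058 (12.6) one of 6.27 at 14889 bp, chr2:177713647-177713911 one of 9.41 at 11180 bp, chr5:4218535-4218799 one of 5.37 at 13831 bp, and chr5:146491334-146491598 (12.9) one of 4.48 at 57370 bp. In 5 of 10 cases the nearest FCCP peak of a tallest untreated-only peak was thus at least as tall, at distances of 1100 to 14841 bp. The same count was not made for other sets of peaks.

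In 2 places a single megabase held 2 of the 10 tallest. Between 19 and 20 Mb on chromosome 8 there were 4 untreated-only peaks of 7.78 to 14.1 normalized tags, all at 4.08- to 4.81-fold, among 24 untreated and 35 FCCP peaks. Between 83 and 84 Mb on chromosome 2 the 2 untreated-only peaks were both among the 10 tallest, among 33 untreated and 42 FCCP peaks. These places were singled out after their values were seen.

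The peaks that stood highest over their surroundings were low in height. The largest fold was at chr15:13844241-13844505, 20.6-fold with 5.23 normalized tags (3.72 to 7.16) and a local level of 0.255. It was followed by chr15:23503264-23503528 (18.4-fold, 5.37 normalized tags), chr4:17634286-17634550 (14.4-fold, 5.5), chr2:86475264-86475528 (14.3-fold, 5.37) and chr15:43980256-43980520 (14.3-fold, 5.10). Their nearest FCCP peaks were 9995 to 50615 bp away and had 3.73 to 4.93 normalized tags. Of these 5, chr15:23503264-23503528 overlapped a peak of the male BAT list, with 5.99 normalized tags there and 2.95-fold over the knockout. Unlike the tallest peaks, these 5 stood far above the required 4-fold, on a local level of 0.255 to 0.382.

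The most isolated untreated-only peaks lay in long stretches where the FCCP list holds nothing. On chromosome 5, chr5:121283913-121284177 (5.91 normalized tags, 4.30-fold) was 1297220 bp from the nearest FCCP centre, and chr5:121976952-121977216 (5.5, 4.46-fold) was 761286 bp from one. They were the only untreated peaks in a stretch of 2.75 Mb between neighbouring FCCP peaks, in which the male BAT list has 81 peaks and the female list 28. On chromosome 11, chr11:115571047-115571311 (6.17, 4.51-fold) lay in a stretch of 2.33 Mb with 4 untreated peaks, 3 of them untreated-only, and with 81 male and 32 female BAT peaks. The others were chr2:157521614-157521878 (6.04) and chr4:139229743-139230007 (6.04), in stretches of 1.27 and 1.51 Mb with 44 and 47 male and 14 and 7 female BAT peaks. The BAT lists hold 39649 male and 18722 female peaks on chromosomes 1 to 19. Counts in these stretches were not compared with other stretches of the same length. All 5 had folds of 4.30 to 4.52, near the limit.

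Chromosomes differed in how many of their peaks were left without a partner. The share was highest on chromosome 19, with 109 of 264 untreated peaks of 5 to 15 normalized tags (41.3%, interval 35.5 to 47.3), followed by chromosome 1 (34.8%) and chromosome 17 (34.5%). It was lowest on chromosome 12, with 31 of 238 (13.0%, 9.33 to 17.9), chromosome 14 (14.3%) and chromosome 18 (16.9%). The intervals of chromosomes 12 and 19 lie far apart, while neighbours in the order overlap. FCCP peaks without an untreated partner had their highest shares on chromosomes 19 (52.0%) and 17 (50.7%) and their lowest on chromosomes 14 (24.6%) and 12 (25.8%). Both shares come from the same 2 lists and are not independent.

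The local level moved with these shares in part. Over untreated peaks of 5 to 15 normalized tags its median was 1.23 on chromosome 19 and 1.26 on chromosome 17, against 1.03 on chromosome 12, 1.02 on chromosome 14 and 1.04 on chromosome 18. Chromosome 1 went against this order: its share was the second highest, but its local level of 1.17 was below the 1.20 of chromosome 7, where the share was 23.3%. Across the 19 chromosomes Pearson's r between local level and share was 0.859 and Spearman's rho 0.737, a description of chromosomes that share libraries and call rule. The local level is height over fold, and the median fold ran the other way. It was 4.90 and 4.83 on chromosomes 19 and 17, against 5.895, 5.82 and 5.78 on chromosomes 12, 14 and 18. Over untreated peaks of any height the order of the local level was less clear. Its median was 0.833 and 0.778 on chromosomes 19 and 17, against 0.764, 0.783 and 0.766 on chromosomes 12, 14 and 18. The part of the local level in the difference between chromosomes was not tested.

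**Figure D4:**
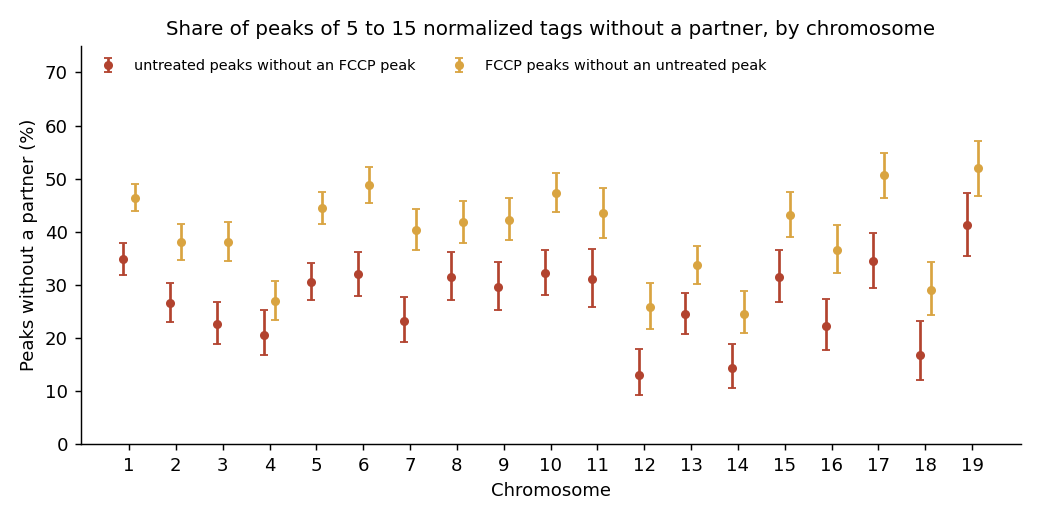
Percent of peaks of 5 to 15 normalized tags without a partner within 1000 bp in the other list, for each of chromosomes 1 to 19, in untreated (red) and FCCP (yellow) lists; bars are Wilson 95% intervals. The untreated share ran from 13.0% on chromosome 12 to 41.3% on chromosome 19, and chromosomes 12, 14 and 18 are low in both lists.

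Along the chromosomes, 1177 of the 2400 windows of 1 Mb with any 3T3-L1 peak held an untreated-only peak, 678 of them a single one and 65 at least 5. The windows with most were 139 to 140 Mb on chromosome 1 (14 untreated-only, 7 with a partner), 16 to 17 Mb on chromosome 5 (14 and 20) and 146 to 147 Mb on chromosome 1 (13 and 12). FCCP-only peaks numbered 18, 16 and 7 in the same windows. The stretch of chromosome 1 from 140 to 150 Mb, which is dense in peaks of both lists, held 64 untreated-only peaks, and its share without a partner (27.0%, 21.8 to 33.0) was close to the 28.3% elsewhere.

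Brown fat gave a readout that the selection had not used. Untreated-only peaks overlapped a male BAT peak by at least 1 bp at 124 of 2196 (5.65%, interval 4.76 to 6.69) and a female BAT peak at 79 (3.60%, 2.90 to 4.46). The shares over all untreated peaks on chromosomes 1 to 19 were 2.81% and 1.61%. Peaks of the same height with an FCCP partner overlapped male BAT at 5.34% (4.78 to 5.96) and female BAT at 3.08% (2.66 to 3.57). For each BAT list the intervals of the 2 sets overlapped, and both sets were above the untreated list as a whole, which holds mostly lower peaks.

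Overlap with both BAT lists at once differed more. It was found at 22 untreated-only peaks (1.00%, 0.663 to 1.51) and at 22 of the 5580 with a partner (0.394%, 0.261 to 0.596), and over all untreated peaks at 0.184%. FCCP-only peaks of the same height had 8 of 4885 (0.164%, 0.0830 to 0.323). The intervals of the untreated-only peaks do not meet those of the other sets, although peaks are not independent and each BAT list is 1 library. Where the local level was at least 1.26, the shares were 1.55% (0.967 to 2.46) for untreated-only peaks and 0.621% (0.347 to 1.11) for peaks with a partner, and these intervals overlap. Below that level the shares were 0.456% (0.195 to 1.06) and 0.289% (0.161 to 0.516), and the intervals overlap there too.

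In both untreated sets the overlap rose over the height classes of 5 to 6, 6 to 7 and 7 to 15 normalized tags. The tallest untreated-only peak that met a BAT list had 11.5 normalized tags. The 12 at 12 to 15 met neither list, a small number of peaks. FCCP-only peaks showed no rise: over the same classes they met the male list at 3.58%, 3.21% and 3.84% and the female list at 1.48%, 1.07% and 1.03%. At 7 to 15 normalized tags, 39 of 276 untreated-only peaks met the male list (14.1%, 10.5 to 18.7), against 133 of 1528 with a partner (8.70%, 7.39 to 10.2) and 26 of 677 FCCP-only peaks (3.84%, 2.63 to 5.57). For the female list the shares were 7.61% (5.03 to 11.4), 5.17% (4.17 to 6.40) and 1.03% (0.502 to 2.12). Both lists were met by 12 untreated-only peaks (4.35%, 2.50 to 7.44), 10 with a partner (0.654%, 0.356 to 1.20) and 1 FCCP-only peak (0.148%, 0.0261 to 0.832). In the lower classes the intervals of untreated-only and partnered peaks for both lists overlapped. The shares were 0.277% (0.108 to 0.711) and 0.186% (0.0795 to 0.435) at 5 to 6 normalized tags. At 6 to 7 they were 1.26% (0.577 to 2.71) and 0.512% (0.248 to 1.05). At 5 to 6 normalized tags the male shares were 4.02%, 3.69% and 3.58%, with overlapping intervals. The female shares there were 2.70% (1.98 to 3.68) for untreated-only peaks, 1.75% (1.32 to 2.32) with a partner and 1.48% (1.11 to 1.96) for FCCP-only peaks, and the first and last of these intervals do not meet.

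**Figure D5:**
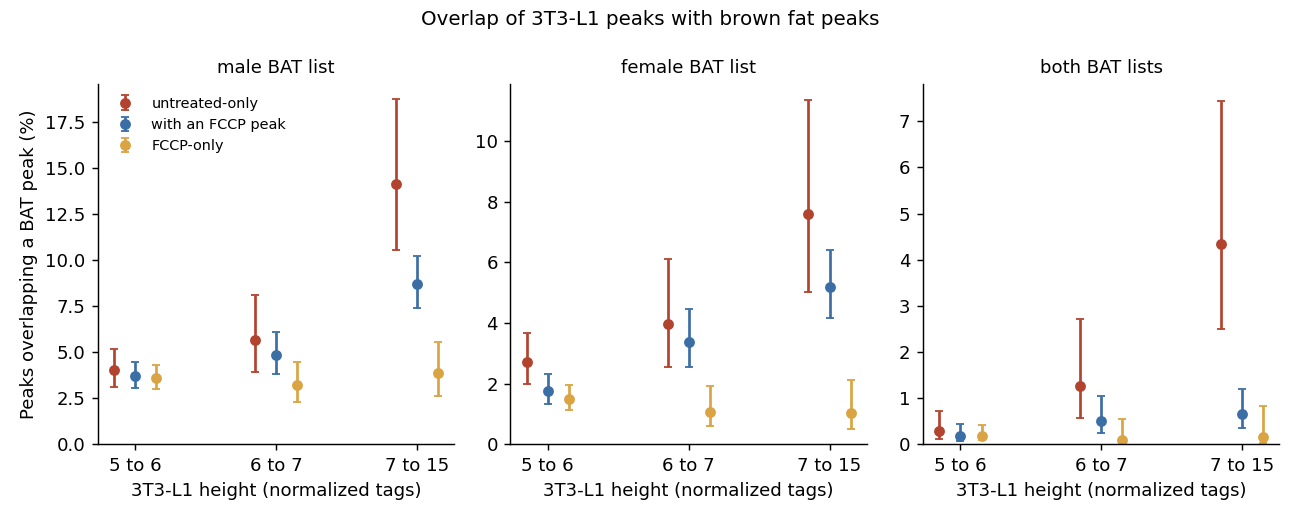
Percent of 3T3-L1 peaks that share at least 1 bp with a peak of the male, the female or both BAT lists, by 3T3-L1 height in normalized tags, for untreated-only peaks (red), untreated peaks with an FCCP partner (blue) and FCCP-only peaks (yellow); bars are Wilson 95% intervals and the y axes differ between panels. At 7 to 15 normalized tags the red points are at 14.1%, 7.61% and 4.35%; their intervals lie above the blue ones for the male list and for both lists, and overlap the blue one for the female list. The sets were not matched for local level within a height class.

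Distance from FCCP peaks went with it too. Of untreated-only peaks with an FCCP centre within 10000 bp, 3.28% (29 of 885) met the male list, of those at 10000 to 50000 bp 6.77%, and of those farther away 8.35% (33 of 395, 6.01 to 11.5). For the female list the shares were 1.92%, 4.37% and 5.57%. Median heights in the 3 classes were 5.5, 5.64 and 5.91 normalized tags, and local levels 1.22, 1.27 and 1.35, so height and local level moved with distance and their part was not tested. FCCP-only peaks gave 2.19%, 3.49% and 5.30% for the male list at the same distances from untreated peaks. For the female list they gave 1.16%, 1.15% and 1.85%, with overlapping intervals and no clear rise.

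In the male list, the peaks met by untreated-only peaks had a median of 5.99 normalized tags and 3.85-fold over the knockout, where the whole list had 4.32 and 5.41-fold. Those met by peaks with a partner had 5.65 and 3.93-fold. In the female list the medians were 4.32 normalized tags and 5.09-fold for untreated-only peaks and 6.36 and 3.61-fold for peaks with a partner. The whole female list had 3.31 and 6.02-fold. With BAT peaks held to at least 4-fold over the knockout, the female shares were 2.60% (2.01 to 3.35) for untreated-only peaks and 1.24% (0.978 to 1.56) with a partner, and the male shares 2.55% and 2.58%. Over all untreated peaks the same limit gave 1.20% for the female and 1.85% for the male list. Under this stricter BAT limit the untreated-only peaks stood above those with a partner in the female list and not in the male list, a difference between the lists that was not tested.

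The 22 peaks found in both BAT lists had a median height of 7.32 normalized tags in untreated cells, against 5.64 for the 2015 that met neither, a local level of 1.52, and an FCCP centre at a median of 40816 bp. The tallest was chr2:122069296-122069560 with 10.2 normalized tags (8.04 to 12.8) and 5.12-fold over the local region. It had 13.0 normalized tags in male BAT (2.5-fold over the knockout) and 8.65 in female BAT (3.15-fold), and an FCCP peak of 6.57 lay 2365 bp away. At chr8:73163344-73163608 the heights were 10.1 in cells, 8.65 in male and 6.36 in female BAT (2.56- and 4.63-fold over the knockout), with no FCCP peak for 506037 bp. These 2 places were thus listed in untreated cells and in both BAT samples, but not with FCCP.

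The highest fold over the local region among the 10 tallest of this group was at chr9:123378028-123378292, with 8.59 normalized tags and 10.4-fold in cells, 12.3 and 7.19-fold over the knockout in male BAT, and 4.83 and 4.40-fold in female BAT. Its nearest FCCP peak lay 16553 bp away with 3.58 normalized tags. At chr6:86698897-86699161 the values were 7.92 and 5.49-fold in cells, 5.32 (3.93-fold over the knockout) in male and 3.56 (6.48-fold) in female BAT. At chr8:97593082-97593346 they were 8.19 in cells, 11 (4.86-fold) in male and 4.32 (3.93-fold) in female BAT.

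The other 5 of the 10 tallest in this group had between 7.52 and 9.66 normalized tags in cells. At chr6:136768305-136768569 (9.66) the folds over the knockout were 2.95 in male and 4.63 in female BAT. They were 2.34 and 3.33 at chr6:128808721-128808985 (9.40), 2.56 and 2.22 at chr5:122908414-122908678 (8.86), 2.14 and 3.33 at chr1:186904724-186904988 (8.59), and 2.12 and 8.79 at chr19:44527505-44527769 (7.52). The BAT call required 2-fold over the knockout, so several of the male values lay near that limit. Nearest FCCP peaks were 35999 to 196367 bp away from these 5.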

How the data were processed

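The 4 deposited peak lists were read as they stand. Per the submitters' processing notes, the tools were Bowtie2 and HOMER and the build mm8; versions are not given in the sources used here. The 3T3-L1 calls used a false discovery rate of 0.001, 4-fold over the local 10000 bp and at most 3 tags per bp, per the file headers. The BAT calls used 0.05, 2-fold over the knockout and over the local region, and at most 1 tag per bp.

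Heights, as deposited, are a normalized tag count (a signal scaled to 10000000 tags). Folds over the local region and knockout and the clonal value are deposited ratios. The focus ratio is a deposited fraction, and HOMER's score, used to rank FCCP peaks in 1 alternative, a deposited score. All are the authors' values for single peaks, and no p-value was used. Centre distances, overlaps (at least 1 bp, closed intervals), the local level (height over fold) and Wilson and exact Poisson 95% intervals were computed in Python 3.11.15 with SciPy 1.17.1, pandas 2.3.3 and numpy 2.4.6, and drawn using matplotlib 3.10.9. The distance and overlap steps were tested on simulated data. Intervals cover counting error only.

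Members, limits and comparisons were chosen with earlier results of these data known. Peaks named are the 10 tallest, the 5 highest in fold, the 5 farthest from an FCCP peak, the 10 tallest in both BAT lists, the 3 fullest 1 Mb windows and 2 peaks on each side of each limit. The other 16 samples and the deposited p-values were not analysed here.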

Additional observations from a re-analysis of the deposited data

How the results depend on the processing

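The number of untreated-only peaks was 276 with a lower limit of 7 normalized tags, 52 among peaks at least 8-fold over the local region and, in an alternative added after the data were seen, 1084 at 4.5-fold or more. The share without an FCCP peak was then 15.3%, 5.29% and 18.8%. It was 35.7%, 29.8%, 26.4% and 22.7% with centres within 200, 500, 2000 and 5000 bp, 33.7% with intervals sharing at least 1 bp, and 29.3% against the top-scoring FCCP peaks alone, as many as the untreated list holds. Without an upper limit, over all sequence names or without 140 to 150 Mb of chromosome 1 it stayed within its interval.

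The median fold of 4.48 was 4.45 to 4.57 over its alternatives. The local level was 1.76 with the limit of 7. The male BAT share was 8.52% with centres within 1000 bp, 2.55% against BAT peaks that exceeded the knockout 4-fold and 14.1% with the limit of 7; the female share was 4.83%, 2.60% and 7.61%. Among peaks with an FCCP partner the first of these alternatives gave 8.51% and 4.21%. The share at or above the FCCP call limit was 88.7% to 90.9%. A single pool per condition limits every value: heights below the call limits are not recorded, and no difference has a replicate check.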
